A study of Homo sapiens with 105 samples.

Results

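The genes described here encode secreted and membrane-bound proteases that cut the extracellular matrix and the factors that activate or block them. The others encode 2 cell-surface proteins that bind components of the matrix. There are 8 of these genes among the 63241 genes counted. MMP1 (interstitial collagenase), MMP7 (matrilysin) and ADAM8 (a membrane-anchored metalloproteinase) are the metalloproteinases. TIMP1 is a tissue inhibitor of metalloproteinases. PLAU (urokinase) and PLAUR (its receptor) start plasminogen activation. CD44 is the hyaluronan receptor, and SDC4 (syndecan-4) is a heparan sulfate proteoglycan of the plasma membrane. The genes were listed by name, chosen by their measured values in earlier results of the same data. MMP1 had been selected on its level in cells given outer membrane vesicles (OMVs) of Proteus mirabilis at 10 h, and ADAM8 for its difference between these OMVs and lipopolysaccharide (LPS) at 24 h. The values that led to the other members are not recorded. Every comparison that involves P. mirabilis OMVs is therefore given as a description, without a p-value. Where members past the threshold are counted in these comparisons, the count was open to that choice and tests nothing.

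The cells were Caco-2, an established line from a human colon adenocarcinoma that forms an intestine-like epithelium. They received membrane vesicles (MVs) of Lacticaseibacillus casei (1.5e+11 particles) or Enterococcus faecalis (7.5e+09 particles) or OMVs of P. mirabilis (6.0e+09 particles), with PBS as the control. Other cells were transfected with RNA from vesicles of the same species (MV-RNA or OMV-RNA), at 100 ng for L. casei, 5 ng for E. faecalis and 2 ng for P. mirabilis, and a control siRNA was transfected at each of these amounts. P. mirabilis LPS was put into the medium, here compared with PBS, or transfected, here compared with siRNA at 2 ng. The labels state 0.2 and 1 ng per µl for these doses, and the methods of the study give the same figures per ml. RNA was taken at 10 and 24 h, and at 48 h for L. casei MVs, L. casei MV-RNA, PBS and siRNA at 100 ng. Replicate numbers ran from 2 to 5. Nothing in the labels says whether libraries of a group came from separate cultures, so p-values measure only the spread between these libraries.

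Matrix metalloproteinases are made as inactive precursors, are opened by other proteases and are held in check by tissue inhibitors. Urokinase bound to its receptor turns plasminogen into plasmin, which can activate several of these precursors. CD44 binds hyaluronan and can hold proteases at the cell surface, while syndecan-4 binds matrix proteins and growth factors through its heparan sulfate chains. In the gut epithelium these genes are known for their part in migration, wound closure and inflammation, and transcription factors of the AP-1 and NF-kappaB families are known to act on several of them.

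The stretches before the start sites of SDC4, PLAUR and MMP7 are shown because each holds a match to a motif of these factors. The sequences are those of RefSeq on GRCh38.p14. An entry was found for 7 of the 8 genes, and MMP1 was the one without. The letters searched on both strands were TGANTCA for AP-1, TATAAA for a TATA box and, for NF-kappaB, GGG and TTCC with 3 free letters between them, in the 250 bases before each start. Among 35116 such windows, 6.57% held the AP-1 letters, 5.67% the NF-kappaB letters and 10.7% the TATA letters. The AP-1 and NF-kappaB matches do not overlap each other in any window below. Capitals mark the matched letters, and each sequence reads 5′ to 3′ on the strand of its gene, which is the minus strand in each case.
SDC4, chr20:45348425-45348674, all 250 bases: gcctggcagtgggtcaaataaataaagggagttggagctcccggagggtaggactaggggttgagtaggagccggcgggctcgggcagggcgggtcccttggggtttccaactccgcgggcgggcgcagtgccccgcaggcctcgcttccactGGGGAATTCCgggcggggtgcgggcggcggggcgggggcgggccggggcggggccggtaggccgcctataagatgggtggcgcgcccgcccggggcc
PLAUR, chr19:43670339-43670365: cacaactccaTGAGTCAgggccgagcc
MMP7, chr11:102530798-102530824: aacactcaaaTGAGTCAcctatttcca
The SDC4 match began 97 bases before the start site, that of PLAUR 186 bases and that of MMP7 67 bases before it. MMP7 also held TATAAA, 30 bases before its start. None of the windows of ADAM8, TIMP1, PLAU (2 start sites) or CD44 held any of the 3 motifs. A match is only a run of letters, and its absence from these windows says nothing about the factors.

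The libraries fell into 28 groups. The rule for these genes set aside the 39 libraries of lanes 2 to 4 of flow cell 1, and 66 libraries remained, with total counts of 632659 to 8558755 (median 5563438). In these, 20 groups kept 2 libraries, 6 kept 3 and 2 kept 4. The markers of epithelium checked against the label were high as a sum in all of these libraries, at 3836 to 8531 CPM (counts scaled to a total of 1e+06) over 7 genes. KRT20 among them was at 0 to 10.2 CPM. The summed level was 34.6 to 96.4 CPM over 6 fibroblast markers, 5.68 to 17.0 CPM over 6 leukocyte markers and 2.73 to 11.7 CPM over 4 endothelial markers. PTPRC, the pan-leukocyte marker, had a count in 2 of 66 libraries, and KDR, an endothelial receptor, in none. Other markers of these lists were present. CD14 (leukocyte) and PECAM1 (endothelial) had a count in all 66, at medians of 5.68 and 4.90 CPM. CD3E and CD68 (leukocyte) had a count in 65 and VWF (endothelial) in 61. Of the fibroblast markers, COL1A1, PDGFRA and LUM had a count in all 66, at medians of 33.6, 19.5 and 5.93 CPM. COL3A1 had a count in 62, DCN in 7 and COL1A2 in 2. The library sizes behind CPM were adjusted with the TMM method over all libraries. Since whole cultures were measured, fewer cells of a kind and less RNA per cell cannot be told apart.

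Levels of different genes are comparable only per length, and were therefore divided by the length of each gene's merged exons. This length can exceed that of any single transcript (9992 bases for CD44, 4457 for PLAUR). The order of the genes below is therefore not one per transcript. SDC4 stood highest, at a median of 77.7 CPM per kb over the 66 libraries (64.8 to 128), and MMP1 next, at 13.6 (0.835 to 69.2). ADAM8, TIMP1 and CD44 followed with medians of 1.84, 1.78 and 1.63 CPM per kb, and their ranges overlapped (0.71 to 3.64, 0 to 7.54 and 0.115 to 5.59). PLAU had a median of 0.934 and PLAUR of 0.296 CPM per kb. In GENCODE v44 on GRCh38, MMP1 (ENSG00000196611) lies on chromosome 11 from 102789401 to 102798160, CD44 (ENSG00000026508) on chromosome 11 from 35138882 to 35232402, and SDC4 (ENSG00000124145) on chromosome 20 from 45325288 to 45348424. Reads were counted without a stated strand, and exons of 3 members overlap genes of the opposite strand. C10orf55 shares 915 bases with PLAU, 31.0% of its exon length, WTAPP1 shares 223 bases with MMP1 (8.1%), and CD44-AS1 and CD44-DT share 84 and 70 bases with CD44. Reads in these bases cannot be assigned to either gene.

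MMP7 was barely detected. Over the 66 libraries it had 61 counts in all, with 0 in 36 of them and never over 6, and it did not pass the filter on low counts, so 7 of the 8 members entered the tests. At the median depth, a count of 0 allows up to 0.539 CPM (3 counts, counting error only). In the 3 libraries with P. mirabilis OMVs at 10 h MMP7 was at 0.930, 0.594 and 0.890 CPM, from 6, 5 and 5 counts, and in both PBS libraries it was at 0. It led its replicate number in 3 of the 5 OMV libraries of both times. These counts are too few for a fold change.

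Among the 66 libraries, cells given P. mirabilis OMVs for 10 h held more MMP1, CD44 and SDC4 RNA than any other cells of the same time and replicate number. MMP1 was at 148, 189 and 137 CPM in replicates 2, 3 and 4. The highest of the other libraries of the same replicate were at 55.3, 88.1 and 79.3 CPM, and the PBS libraries (replicates 2 and 3) at 33.2 and 60.6 CPM. The OMV libraries did not overlap with any other group. Against PBS the log2 fold change of MMP1 was 1.80 ± 0.25 (SE from the fit over all groups, 3 against 2 libraries), or 3.49-fold.

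CD44 was at 18.3, 55.9 and 52.5 CPM in the same 3 libraries. The highest others of replicates 2, 3 and 4 reached 8.49, 35.6 and 36.6 CPM, so that each OMV library led its own replicate number, while the replicate 2 library lay below every replicate 3 library. Against PBS (8.39 and 26.6 CPM) the log2 fold change of CD44 was 1.09 ± 0.19. SDC4 was at 233, 327 and 335 CPM with OMVs and at 190.1 and 205 CPM with PBS. The others of the same replicate numbers reached at most 195.5, 234 and 258 CPM, and the log2 fold change was 0.51 ± 0.08. A collagenase, a hyaluronan receptor and a syndecan were thus each highest in all 3 OMV libraries within their replicate number. The summed fibroblast markers were at 42.95 to 62.5 CPM in these libraries and at 44.9 to 59.3 CPM with PBS, and the endothelial ones at 2.73 to 4.27 and 3.78 to 6.34 CPM. Their part in the result was not tested.

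**Figure D1:**
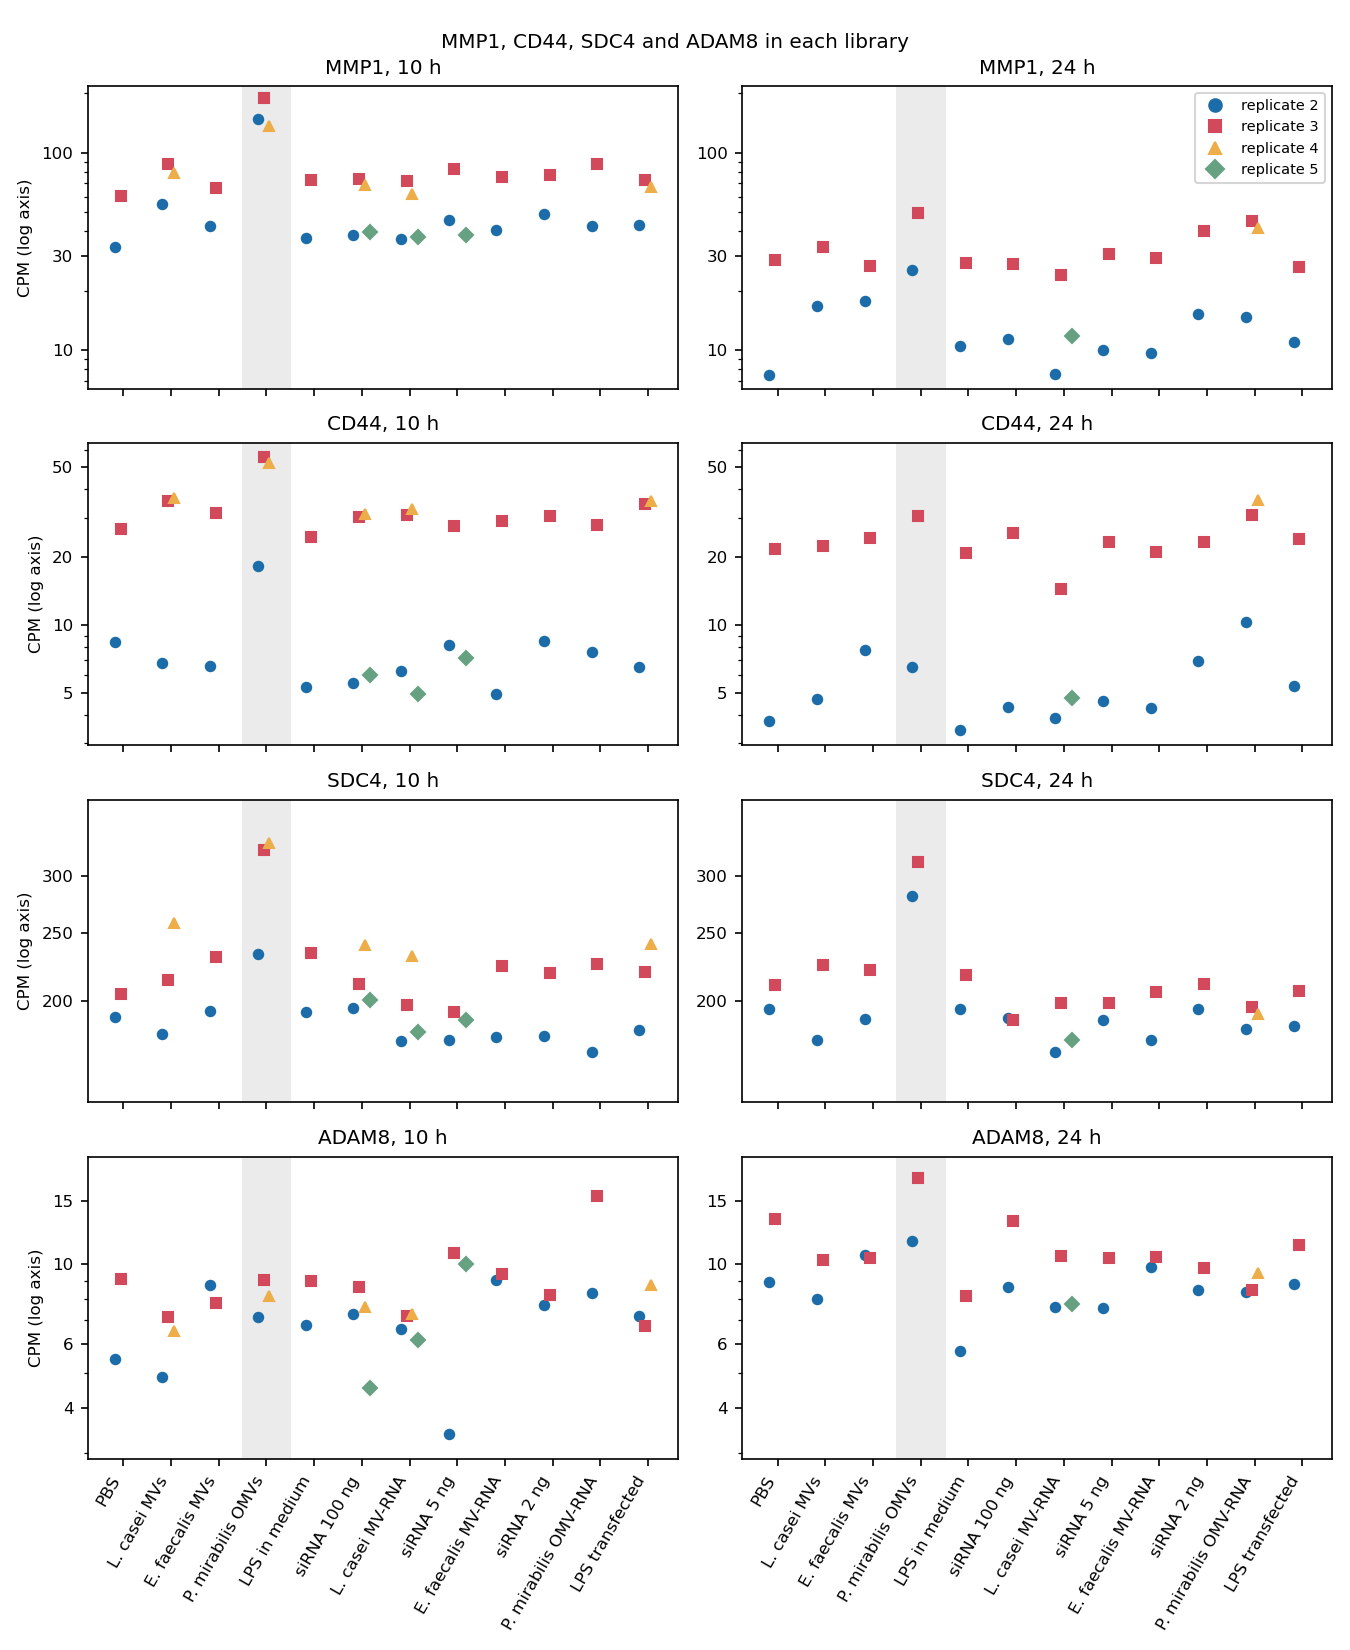
Level of MMP1, CD44, SDC4 and ADAM8 (CPM, log axis) by treatment in each library of 10 h (left) and 24 h (right) among the 66. Those of 48 h are not drawn. Colour and symbol give the replicate number, and P. mirabilis OMVs are shaded. MMP1 and SDC4 are highest with OMVs within each replicate number at both times, CD44 at 10 h, where replicate 2 has 18.3 CPM and replicate 3 has 55.9, and ADAM8 at 24 h, with 11.6 and 17.3 CPM.

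The remaining members overlapped with other groups at 10 h. PLAUR was at 1.86, 2.26 and 3.20 CPM with OMVs and at 0.839 and 1.102 CPM with PBS, with a log2 fold change of 1.23 ± 0.58. PLAU was at 4.65, 5.82 and 4.27 CPM against 1.26 and 3.997 CPM, a log2 fold change of 0.71 ± 0.34. Both are low genes whose libraries with OMVs overlapped with those of other groups. ADAM8 (7.13, 9.03 and 8.19 CPM with OMVs, 5.46 and 9.10 CPM with PBS) had a log2 fold change of 0.05 ± 0.22 and TIMP1 of -0.14 ± 0.38. Of the 7 members tested, 3 passed the threshold of an adjusted p under 0.05 used throughout (edgeR, Benjamini-Hochberg over 18775 genes), beside 1.06% of all genes, and nothing is read from this count, since such results chose members. The median log2 fold change of the 7 members was 0.71 and that of all genes -0.00243. Without the PBS library of replicate 3, MMP1 (1.70) and CD44 (0.63) no longer passed and SDC4 still did.

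The same 3 genes stood out against each of the other groups given to the cells without transfection. Against LPS in the medium at 10 h (37.1 and 72.5 CPM of MMP1) the log2 fold changes were 1.56 ± 0.23 for MMP1, 1.28 ± 0.18 for CD44 and 0.40 ± 0.08 for SDC4, beside 3.18% of all genes past the threshold. Against L. casei MVs they were 1.14 ± 0.19, 0.75 ± 0.14 and 0.46 ± 0.07 (0.506% of all genes), and against E. faecalis MVs 1.53 ± 0.23, 0.93 ± 0.18 and 0.41 ± 0.08 (0.852%). The 3 members past the threshold were the same in each of these comparisons, which share the OMV libraries that MMP1 was selected on, so nothing is read from the counts. Without the E. faecalis MV library of replicate 3, MMP1 (1.32) and CD44 (0.98) no longer passed, nor did SDC4 without that of replicate 2 (0.36). Without the LPS library of replicate 2, SDC4 against LPS (0.35) did not pass either.

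At 24 h the members past the threshold were SDC4 and, against LPS, ADAM8, and a change from 10 h is not shown by this. SDC4 was at 281 and 314 CPM with OMVs, above all 24 others of that time, which lay between 169.7 and 225 CPM. Its log2 fold changes were 0.56 ± 0.08 against PBS, 0.53 ± 0.08 against LPS in the medium, 0.58 ± 0.08 against L. casei MVs and 0.54 ± 0.09 against E. faecalis MVs. They passed the threshold in all of these, beside 0.112%, 0.154%, 0.0692% and 0.0479% of all genes. Nothing is read from this, since the comparisons share the OMV libraries and SDC4 was chosen by measured values. MMP1 was at 25.4 and 49.4 CPM with OMVs, again the highest of each replicate number (next 17.7 and 45.02 CPM), at a level far below that of 10 h. Its log2 fold change against PBS (7.53 and 28.8 CPM) was 1.12 ± 0.36 and did not pass. CD44, at 6.496 and 30.5 CPM with OMVs, was exceeded in both replicate numbers by cells transfected with P. mirabilis OMV-RNA (10.3 and 30.8 CPM) and in replicate 2 also by E. faecalis MVs (7.80 CPM) and siRNA at 2 ng (6.95 CPM).

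ADAM8 was at 11.6 and 17.3 CPM with OMVs at 24 h, at 5.75 and 8.20 CPM with LPS in the medium and at 8.94 and 13.4 CPM with PBS. The log2 fold change was 1.08 ± 0.22 against LPS, the difference on which ADAM8 was chosen, and 0.40 ± 0.21 against PBS. LPS in the medium itself lay at -0.68 ± 0.22 against PBS (adjusted p = 1, edgeR), so that the value against LPS holds both differences. ADAM8 against LPS did not pass without the OMV library of replicate 3 (0.93) or the LPS library of replicate 2 (0.99).

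**Figure D2:**
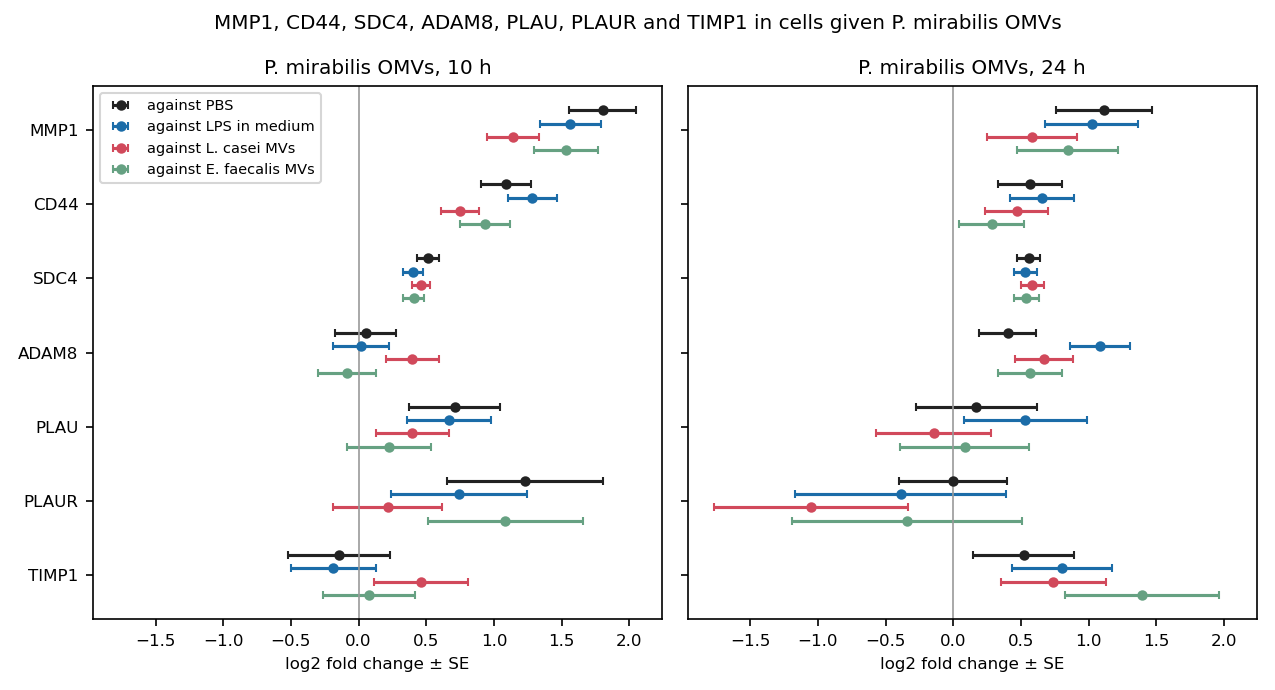
Log2 fold change (points) with its standard error (bars) of the 7 members tested in cells given P. mirabilis OMVs, against PBS, LPS in the medium, L. casei MVs and E. faecalis MVs, at 10 h (left) and 24 h (right). The comparisons share the OMV libraries. MMP1, CD44 and SDC4 lie above 0 throughout, with MMP1 at 1.14 to 1.80 at 10 h, and SDC4 keeps nearly the same value at both times (0.51 and 0.56 against PBS).

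Whether OMVs and their RNA differed was examined as the difference of the effects, OMVs against PBS minus OMV-RNA against siRNA. At 10 h it was 1.78 ± 0.39 for MMP1, 0.57 ± 0.13 for SDC4 and 1.09 ± 0.33 for CD44 on the log2 scale. MMP1 and SDC4 were past the threshold, beside 0.165% of all genes, and CD44 was not, though it was with the replicate block fitted within each time (1.11) and with all genes that had a count, where MMP1 was not. The difference holds the OMV values on which MMP1 was selected. SDC4 was also chosen by measured values, which are not recorded, so passing here or with a library left out tests nothing. At 24 h the difference was 0.73 ± 0.12 for SDC4, past the threshold beside 0.0373%, and 0.91 ± 0.46 for MMP1. The OMV-RNA library of replicate 3 at 10 h was the shallowest of all, at 632659 counts, and without it MMP1 did not pass while SDC4 did (0.66). Both calls at 10 h rest on few libraries. MMP1 did not pass without either OMV-RNA library (1.81 and 1.80), either siRNA library (1.62 and 2.02), either PBS library (1.85 and 1.68) or the OMV library of replicate 2 (1.47), and SDC4 did not pass without the OMV library of replicate 3 (0.50), the OMV-RNA library of replicate 2 (0.46), or the replicate 3 libraries of siRNA (0.52) or PBS (0.55). At 24 h SDC4 passed whichever library was left out. The change of the OMV effect from 10 to 24 h passed for no member, neither against PBS (MMP1 -0.69 ± 0.44, CD44 -0.52 ± 0.30, 0.032% of all genes past the threshold) nor against LPS (ADAM8 1.06 ± 0.30, 0.154%).

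The libraries set aside give other values. Their CD44 and TIMP1 levels did not follow the replicate numbers, as given further on, and whether their labels are right is not known. Among them, OMVs at 10 h (replicate 5) had 12.7 CPM of MMP1, 5.11 of CD44 and 180 of SDC4. The set-aside PBS libraries of 10 h (replicates 4 and 5) had 27.95 and 21.1 CPM of MMP1, 25.9 and 8.43 of CD44 and 212 and 197.5 of SDC4. The set-aside OMV library of 10 h thus lay below both of these for MMP1, CD44 and SDC4, the reverse of the main reading. OMVs at 24 h (replicates 4 and 5) had 70.0 and 34.5 CPM of MMP1, 36.4 and 26.6 of CD44 and 238 and 228 of SDC4, beside 45.8 and 51.4, 8.26 and 8.73, and 201 and 194.6 CPM in the set-aside PBS libraries of that time. The MMP1 level of OMVs, replicate 5, was below both of these PBS libraries. With these libraries added and a replicate block the log2 fold changes of OMVs against PBS at 10 h were 1.83 for MMP1, 1.01 for CD44 and 0.41 for SDC4, and none passed. At 24 h they were 0.41 for SDC4 against PBS and 0.52 for ADAM8 against LPS, and neither passed. Without a replicate block, the 66 libraries gave 1.71 for MMP1, 1.154 for CD44 and 0.60 for SDC4 against PBS at 10 h, and no member passed in any comparison with OMVs.

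With the other treatments no member passed the threshold. Over the 16 comparisons of L. casei MVs, E. faecalis MVs, the vesicle RNAs and LPS with their controls, 0 of 112 values passed in edgeR, where 8 were under 0.05 before adjustment. DESeq2 and limma-voom also gave 0. The share of all genes past the threshold was 0.0373%, 0.00533% and 2.75% for L. casei MVs at 10, 24 and 48 h and 0% for the others. MMP1 was at 55.3, 87.3 and 79.3 CPM with L. casei MVs at 10 h, above PBS cells of replicates 2 and 3 (33.2 and 60.6 CPM) and below the OMV libraries, with a log2 fold change of 0.66 ± 0.26 (adjusted p = 0.563). With E. faecalis MVs it was at 42.7 and 66.5 CPM (0.27 ± 0.29, adjusted p = 1). LPS in the medium gave 0.24 ± 0.28 for MMP1, -0.19 ± 0.22 for CD44 and 0.11 ± 0.09 for SDC4 at 10 h, each at an adjusted p of 1. With P. mirabilis OMV-RNA at 10 h the values against siRNA were 0.02 ± 0.31, -0.00 ± 0.31 and -0.06 ± 0.10, where the replicate 3 library held only 632659 counts. At 24 h they were 0.20 ± 0.29 for MMP1, 0.50 ± 0.19 for CD44 and -0.17 ± 0.08 for SDC4. Those of CD44 and SDC4 were among the values under 0.05 before adjustment. For SDC4 the 16 values ran from -0.17 to 0.11, and for PLAUR from -0.29 to 1.57, the gene with the fewest counts among those tested.

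L. casei MVs at 48 h was the comparison of this kind with the most genes past the threshold, and its members stayed outside it. PLAUR was at 2.35 and 4.34 CPM against 0.204 and 1.23 CPM in PBS cells (log2 fold change 1.57 ± 0.66, adjusted p = 0.194), MMP1 at 6.43 and 15.9 against 3.27 and 2.29 CPM (1.39 ± 0.66, adjusted p = 0.286), and TIMP1 at 3.45 and 0.167 against 5.93 and 7.21 CPM (-1.01 ± 0.38, adjusted p = 0.137). The PBS libraries of 48 h are replicates 2 and 5 and those with MVs replicates 2 and 3, so these levels are compared through the replicate block. Against siRNA at 100 ng and against L. casei MV-RNA, both with replicates 2 and 3, PLAUR was at -0.42 ± 0.39 and -0.34 ± 0.40. MMP1 was at -0.17 ± 0.43 and -0.27 ± 0.43, and TIMP1, still lower with MVs, at -1.17 ± 0.39 and -0.49 ± 0.47. No member passed in either, and 0.0213% and 0.016% of all genes did. L. casei MVs against E. faecalis MVs (0.00533% at 10 h and 0.0107% at 24 h) and OMV-RNA against transfected LPS (0% at both times) also passed no member.

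Between the controls no member passed. Over the 7 comparisons of siRNA with PBS, 0 of 49 values passed (edgeR, 2 at an unadjusted p under 0.05, and 0 in DESeq2 and limma-voom), beside 0.282% of all genes for siRNA at 100 ng at 48 h and 0% for the others. At 48 h siRNA at 100 ng gave 1.99 ± 0.62 for PLAUR (adjusted p = 0.153) and 1.56 ± 0.64 for MMP1 (adjusted p = 0.337). Without the siRNA library of replicate 2 both passed, at 2.39 and 2.09.

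MMP1 was lower at 24 h than at 10 h in every control. The PBS libraries of 10 h were on flow cell 2 and those of 24 h on flow cell 1, so time and flow cell cannot be told apart there. With siRNA at 100 ng, the 10 h libraries were on flow cell 2 and those of 24 h on either. At 5 ng all were on flow cell 2. In PBS cells it was at 33.2 and 60.6 CPM at 10 h, 7.53 and 28.8 CPM at 24 h, and 3.27 and 2.29 CPM at 48 h. From 10 to 24 h it fell by 1.43 on the log2 scale with PBS (adjusted p = 0.00655, edgeR), by 1.64 with siRNA at 100 ng (0.00011), by 1.67 at 5 ng (0.000324) and by 1.21 at 2 ng (0.00925), with standard errors of 0.29 to 0.34. The 4 comparisons had 7.15%, 14.1%, 12.5% and 6.29% of all genes past the threshold. From 24 to 48 h MMP1 fell by 2.04 ± 0.61 with PBS (adjusted p = 0.0167, 17.8% of all genes). With siRNA at 100 ng, at 27.5 and 24.0 CPM in replicate 3 and 11.4 and 3.38 CPM in replicate 2, the value was -0.63 ± 0.39 and did not pass (adjusted p = 0.326, 15.3% of all genes).

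These calls of MMP1 rest on few libraries. With PBS from 10 to 24 h it did not pass without the 10 h library of replicate 3 (-1.54) or the 24 h library of replicate 2 (-1.09), nor with siRNA at 2 ng without the 10 h library of replicate 2 (-1.04) or either 24 h library (-1.08 and -1.49). With PBS from 24 to 48 h it ended without the 24 h library of replicate 3 (-1.43) or either 48 h library (-2.30 and -1.77). With siRNA at 100 and 5 ng the fall passed whichever library was left out. With the set-aside libraries included, MMP1 in PBS cells was -0.14 from 10 to 24 h and -1.01 from 24 to 48 h, and with siRNA it was -1.37, -1.17 and -1.23 from 10 to 24 h at 100, 5 and 2 ng, and none of these passed. Without a replicate block none of the changes with time passed either.

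PLAUR, ADAM8 and SDC4 rose with time in some controls. PLAUR rose in cells with siRNA at 100 ng, from 0.598 and 1.18 CPM at 24 h to 2.26 and 7.18 CPM at 48 h, a log2 fold change of 2.30 ± 0.53 (adjusted p = 0.000848), which did not pass without the 48 h library of replicate 3 (1.74). In PBS cells it was at 0.471 and 1.199 CPM at 24 h and at 0.204 and 1.23 CPM at 48 h (0.43 ± 0.86, adjusted p = 0.798). ADAM8 rose from 10 to 24 h with siRNA at 100 ng, by 0.64 ± 0.20 (adjusted p = 0.0211), from 4.55 to 8.67 CPM at 10 h to 8.68 and 13.2 CPM at 24 h. It did not pass without the 10 h library of replicate 5 (0.49) or either 24 h library (0.75 and 0.50), and with PBS it was 0.52 ± 0.23 (adjusted p = 0.181). SDC4 rose by 0.29 ± 0.09 from 24 to 48 h with PBS (adjusted p = 0.0134) and by 0.24 ± 0.08 with siRNA at 100 ng (adjusted p = 0.0423). Both were lost without the 24 h library of replicate 3 (0.26 and 0.14) or the 48 h library of replicate 2 (0.26 and 0.11). CD44, PLAU and TIMP1 passed in none of the 6 comparisons of times. Without the 48 h library of replicate 3, however, CD44 (-1.13) and MMP1 (-1.90) passed with siRNA at 100 ng from 24 to 48 h, and without the 10 h library of replicate 5 ADAM8 (0.86) passed with siRNA at 5 ng.

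**Figure D3:**
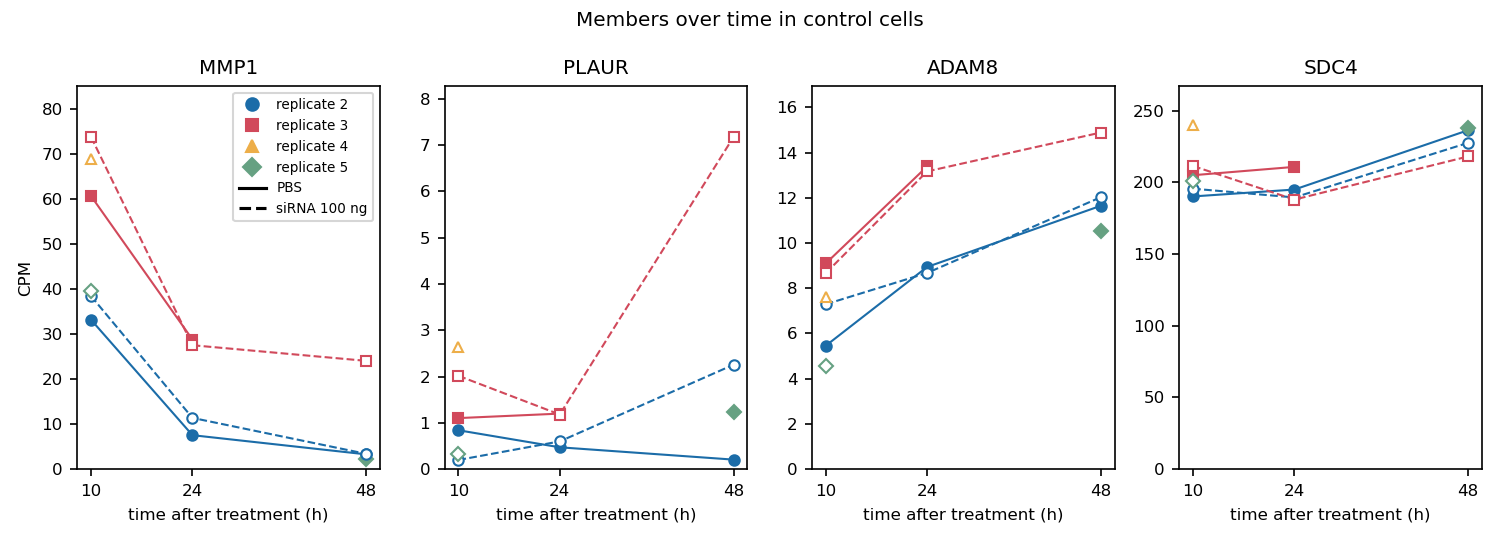
Level of MMP1, PLAUR, ADAM8 and SDC4 (CPM, axis from 0) against the time after treatment in PBS cells (filled symbols, solid lines) and cells with siRNA at 100 ng (open symbols, dashed lines), with colour and symbol for the replicate number and lines joining libraries of the same number. MMP1 drops from 33.2 to 73.8 CPM at 10 h to 2.29 to 24.0 CPM at 48 h, and PLAUR reaches 7.18 CPM at 48 h in replicate 3.

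The replicate number separated the members too. All 7 differed between replicate 3 and replicate 2, in a comparison in which 62.2% of all genes passed, so that the count says little about them. This sets 1 replicate number against 1 other, and the spread is that of libraries of different treatments and times. The values that led to CD44 and TIMP1 are not recorded either, so the differences are given as a description, without p-values. TIMP1 was lower by 3.09 ± 0.12 on the log2 scale and CD44 higher by 2.20 ± 0.07. MMP1 was higher by 1.02 ± 0.09, PLAUR by 0.78 ± 0.17, PLAU by 0.50 ± 0.11, ADAM8 by 0.34 ± 0.06 and SDC4 by 0.18 ± 0.02. The median absolute log2 fold change over all genes was 0.187. At 10 h TIMP1 lay between 6.02 and 10.9 CPM in the 12 libraries of replicate 2 and between 0 and 1.71 CPM in the 12 of replicate 3. CD44 lay between 4.97 and 18.3 CPM in the former and between 24.6 and 55.9 CPM in the latter.

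Replicate 5 was like replicate 2 and replicate 4 like replicate 3 in TIMP1. Over the 66 libraries, TIMP1 was at 3.45 to 10.9 CPM in replicates 2 and 5 and at 0 to 1.71 CPM in replicates 3 and 4, without overlap. CD44 reached 18.3 CPM in replicates 2 and 5 and began at 14.4 CPM in replicates 3 and 4, so that its ranges overlapped. An inhibitor of metalloproteinases and a hyaluronan receptor thus marked the replicate numbers in opposite directions, and what differed between the replicates is not given by the labels. In the set-aside libraries the numbers did not hold. Of 18 libraries of replicate 4, 7 had TIMP1 within the range of replicates 3 and 4 and 8 within that of replicates 2 and 5, and of 20 libraries of replicate 5, 7 lay within the range of replicates 2 and 5 and 12 within that of replicates 3 and 4. The single set-aside library of replicate 3 lay within its own range.

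**Figure D4:**
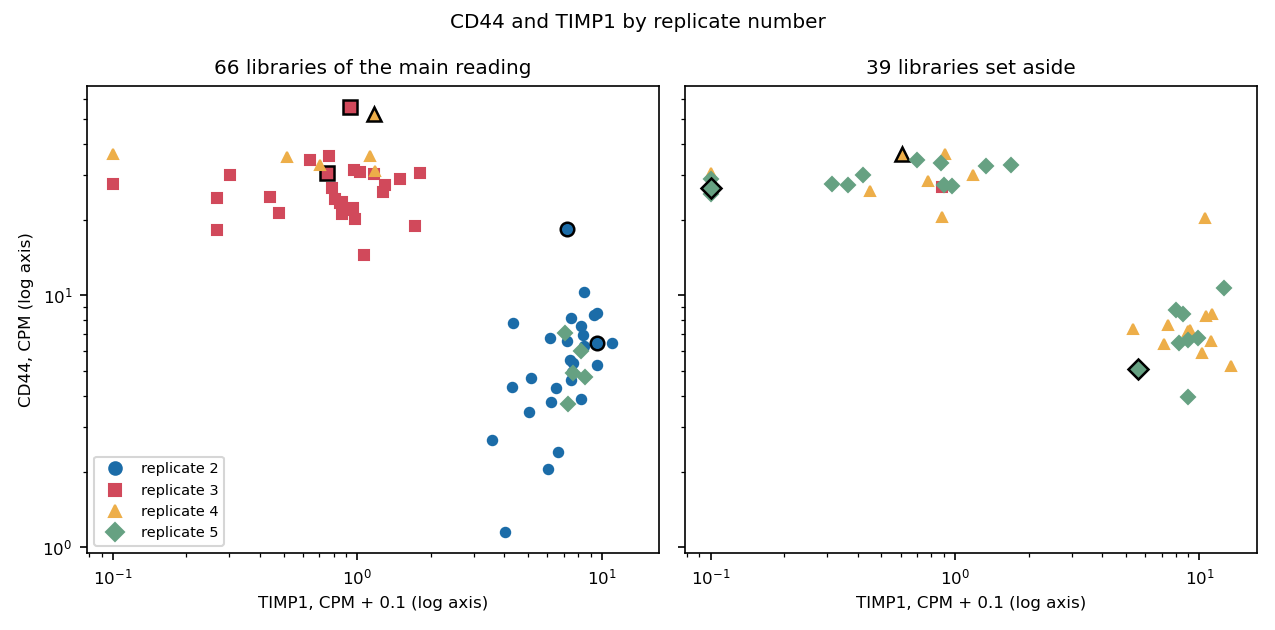
CD44 (CPM) against TIMP1 (CPM plus 0.1), both on log axes, in the 66 libraries of the main reading (left) and in the 39 set aside (right), with colour and symbol for the replicate number and a black edge for P. mirabilis OMVs. On the left, replicates 2 and 5 lie at high TIMP1 and low CD44 and replicates 3 and 4 at low TIMP1 and high CD44, while on the right libraries of replicates 4 and 5 lie in both clouds.

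The wider set of matrix genes was read from 7 lists of other metalloproteinases, ADAM and ADAMTS proteases, inhibitors, plasminogen activation, heparan sulfate proteoglycans, hyaluronan and CD44 partners, and AP-1 and ETS factors. Of 91 genes listed, 59 were tested. With OMVs against PBS at 10 h, 0 rose and 1 fell, beside 1.06% of all genes past the threshold. The gene that fell was SERPINF2 (the plasmin inhibitor alpha-2-antiplasmin), at -0.71 ± 0.15. Against LPS in the medium, beside 3.18% of all genes, ADAM9 (0.36 ± 0.07) and VCAN (versican, a hyaluronan-binding proteoglycan, 1.12 ± 0.33) were higher. SERPINF2 (-1.04 ± 0.14), LRP1 (a receptor that clears proteases, -0.50 ± 0.12) and MMP11 (-0.83 ± 0.25) were lower. VCAN and MMP11 lay close to the threshold. VCAN ran from 0 to 27.2 CPM and was higher by 5.03 on the log2 scale in replicate 3 than in replicate 2. At 24 h with OMVs 0 of the 59 passed against PBS or LPS (edgeR), beside 0.112% and 0.154% of all genes. Nothing is read from these counts. The medians of the 59 log2 fold changes against PBS were -0.02 at 10 h and 0.02 at 24 h.

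From 10 to 24 h, 6 of the 59 rose and 4 fell with siRNA at 100 ng (14.1% of all genes passed). At 5 ng 6 rose and 6 fell (12.5%), at 2 ng 4 and 2 (6.29%), and with PBS 1 and 2 (7.15%). FOSL1, an AP-1 subunit, fell with siRNA at 100 ng by 1.62 ± 0.34 (adjusted p = 0.000899), at 5 ng by 1.26 ± 0.35 (0.0114) and at 2 ng by 1.70 ± 0.35 (0.00237). FOSL2, another AP-1 subunit, rose there by 0.25, 0.43 and 0.28. With PBS no AP-1 or ETS factor passed from 10 to 24 h. From 24 to 48 h with PBS, 8 of the 59 rose and 10 fell (17.8%), with FOSL1 lower by 2.15 ± 0.65 (0.0169). With L. casei MVs against PBS at 48 h, where MMP1 did not pass, 6 of the 59 rose and 3 fell, beside 2.75% of all genes. Against siRNA at 100 ng and L. casei MV-RNA, which share the replicate numbers 2 and 3 with the MVs, 0 of the 59 passed (edgeR). The shares of all genes there were 0.0213% and 0.016%. The PBS libraries of that time were replicates 2 and 5. The genes that rose against PBS were FOSL1 (2.81 ± 0.58, adjusted p = 0.00557), FOS (1.68 ± 0.43, 0.0241), JUNB (1.29 ± 0.27, 0.00379), ETV4 (1.22 ± 0.30, 0.0196), ETV5 (1.08 ± 0.21, 0.000968) and the membrane-type metalloproteinase MMP15 (0.70 ± 0.18, 0.0269). Those that fell were S100A10, GPC3 and SERPINF2, by 0.36, 0.49 and 0.50. With the culture time, SERPINF2 rose in all 4 controls from 10 to 24 h, by 0.83 to 1.17.

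The genes whose levels followed a member most closely were sought over 63 libraries, after the mean of each time and replicate number was removed, among 12744 genes with a mean of at least 5 CPM. For MMP1 they included PERP (Pearson r = 0.861) and C3 (complement component 3, 0.778). For CD44 they included MMP1 itself (0.77) and PERP (0.719), and for SDC4 they were PI3 (elafin, an elastase inhibitor, 0.862), C3 (0.81) and PERP (0.803). For the other members the highest values were 0.785 for PLAU (FFAR4), 0.634 for PLAUR (DESI1), 0.537 for ADAM8 (PTCH1) and 0.534 for TIMP1 (ZNF318). Among members, MMP1 and SDC4 had an r of 0.637 and CD44 and SDC4 of 0.452, and MMP1 and TIMP1 of 0.03. These values describe libraries that include the 5 with OMVs, and depth differed between them.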

How the data were processed

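Total RNA of Caco-2 cells was depleted of rRNA and sequenced, and the deposited values are raw counts per gene, which the authors made with STAR and featureCounts on GRCh38, per the labels and the methods of the study. No strand setting is stated. Of 63241 genes, 46395 had a count and 18775 passed edgeR's filterByExpr. All libraries were read, and the 39 of lanes 2 to 4 of flow cell 1 were set aside. The 66 others held 632659 to 8558755 counts (a count of 0 allows 4.74 to 0.351 CPM), and a floor covers counting error only.

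Counts were fitted in edgeR 4.0.16 (R 4.3.3) with TMM scaling, group means and the replicate number as a block, trended dispersion and robust quasi-likelihood tests. Adjusted p-values are Benjamini-Hochberg values over all 18775 genes, with a threshold of 0.05, and a standard error is the log2 fold change over the root of F. DESeq2 1.42.0, limma-voom (limma 3.58.1), RLE scaling, other blocks and filters, and leaving out single libraries were the alternatives.

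Over 29 comparisons, libraries of the same replicate number deviated together in their 1500 most variable genes, with correlations of 0.449 to 0.879 (median 0.724). The labels do not say what a number marks.

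The members and the gene lists were chosen with earlier results of these data known. Named genes are the 8 members, per comparison up to 10 listed genes with the largest change past the threshold, and for each member the 3 genes of highest Pearson correlation on log2 CPM (prior count 3). One gene that this rule names is not reported here. Sequences were taken from RefSeq tables, and exons from GENCODE.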

Additional observations from a re-analysis of the deposited data

Results flagged for a closer look

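The effect of P. mirabilis OMVs against PBS differed from that of OMV-RNA against siRNA by 1.78 on the log2 scale for MMP1 and 0.57 for SDC4 at 10 h, and by 0.73 for SDC4 at 24 h, and the difference itself passed edgeR in each. These values are a description, since members were chosen on values of the OMV libraries. In 14 sets of values, each of 1 member in a group of 4 libraries, no member had a library far from the others, where chance flags about 1 set in 20.

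Among the libraries set aside, some were above every PBS or siRNA library of the same time, set-aside ones included. Whether the labels of the set-aside libraries are right is not known. For MMP1 at 24 h (highest control 51.4 CPM) these were transfected LPS, replicate 4, at 153 CPM, OMV-RNA, replicate 5, at 82.3 CPM and OMVs, replicate 4, at 70 CPM. For TIMP1 at 10 h (9.46 CPM) they were OMV-RNA, replicate 4, at 13.4 CPM, transfected LPS, replicate 5, at 12.5 CPM and LPS in the medium, replicate 4, at 11.1 CPM. For PLAU at 24 h (4.04 CPM) transfected LPS, replicate 5, was at 4.26 CPM. For PLAUR at 10 h (2.64 CPM) P. mirabilis OMV-RNA, replicate 5, was at 4.87 CPM and E. faecalis MV-RNA, replicate 4, at 2.75 CPM, and at 24 h (2.54 CPM) LPS in the medium, replicate 5, at 6.67 CPM and L. casei MVs, replicate 5, at 6.58 CPM.

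For CD44 at 10 h (33.1 CPM) E. faecalis MV-RNA, replicate 4, was at 36.3 CPM and P. mirabilis OMV-RNA, replicate 5, at 33.5 CPM, and at 24 h (30.1 CPM) OMVs, replicate 4, at 36.4 CPM and OMV-RNA, replicate 5, at 34.4 CPM. For SDC4 at 24 h (218 CPM) they were OMV-RNA, replicate 5, at 252 CPM, OMVs, replicates 4 and 5, at 238 and 228 CPM, transfected LPS, replicates 4 and 5, at 232 and 236 CPM, and L. casei MVs, replicate 5, at 229 CPM.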

How the results depend on the processing

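None of the 36 values past the threshold changed its direction under the alternatives run for it. With no replicate block over the same 66 libraries, and with all libraries with or without a replicate block, 0 members passed in each of the 16 comparisons in which at least 1 had passed, and only replicate 3 against replicate 2 kept its 7 calls with all libraries and the block. With the replicate block fitted within each time, 2 members passed for OMVs against PBS at 24 h, where 1 had, and 1 passed among the comparisons without a call, ADAM8 in the change of the OMV effect against LPS, and CD44 joined MMP1 and SDC4 in the difference of OMVs and OMV-RNA at 10 h (3 members, where 2 had passed). With all genes that had a count, CD44 passed there and MMP1 did not. With replicates 2 and 3 only, 0 passed in the difference of OMVs and OMV-RNA at 10 h, where 2 had, and 1 passed where 2 had in PBS from 24 to 48 h and in siRNA at 100 ng from 10 to 24 h and from 24 to 48 h. In the last of these 1 also passed with all genes that had a count and without the robust option. RLE scaling, DESeq2 and limma-voom left all 36 calls past the threshold. The cause of these changes was not tested. Leaving out a library each time gave 1 to 3 members for OMVs at 10 h against PBS and E. faecalis MVs, 2 to 3 against LPS and 3 against L. casei MVs, and at 24 h 1 to 2 against LPS and 1 against the others. It gave 0 to 2 for the difference of OMVs and OMV-RNA at 10 h and 1 at 24 h. In time it gave 0 to 1 for PBS from 10 to 24 h and 0 to 2 from 24 to 48 h, 1 to 2 and 1 to 3 for siRNA at 100 ng, 1 to 2 at 5 ng and 0 to 1 at 2 ng, and 0 to 2 for the comparisons without a call. Leaving out a library was not run for replicate 3 against replicate 2.

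Depth limited MMP7, PLAUR and PLAU, which had 61, 581 and 1087 counts over the 66 libraries.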
